A study of Oryza sativa with 4 samples.

Results

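Catalases, ascorbate peroxidases, superoxide dismutases and glutathione peroxidases remove superoxide and peroxides from plant cells. The 10 genes described here were taken from the deposited table by their identifiers, and each carries 1 of these 4 enzyme types in at least 1 of its descriptions. They make up 10 of 10455 genes, and 17 of 14122 transcripts, in that table. By type they are 2 catalases, 3 ascorbate peroxidases, 2 genes described as superoxide dismutase or by its metal-binding domain, and 3 glutathione peroxidases.

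The samples were shoots of wild-type rice grown in a greenhouse for 2 weeks, with no transgene or mutation named in the labels. Potted plants were turned upside down so that the shoots sat in water for 10 min, at 42 °C for the heated group and at 22 °C for the control group. Both groups were thus submerged and handled alike, and each library pooled 10 shoots. Ribosome footprints, the pieces of mRNA that translating ribosomes shield from nuclease, were sequenced from 2 libraries per temperature to ask how translational efficiency changed with heat.

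The deposited table gives each transcript a single score at each temperature, with no value per library. It was taken to be translational efficiency, the amount of footprints for a given amount of RNA, since the design text names that as the aim. All libraries of the series are titled as footprint libraries and none as an RNA library, so whether and from where RNA amounts entered the score is unknown. Its formula, its scaling and any log step are not stated. If the score is such an efficiency, a higher value at 42 °C can come from more footprints or from less RNA, which cannot be told apart in this table. Without values per library, neither replicate error nor any test can be given, and the depth is unknown. Comparisons below are ratios of 2 scores unless score units are named, and genes whose ratio reached 2-fold are said to be called, higher or lower. All 47 genes described as chlorophyll a/b-binding proteins, Rubisco small subunits or photosystem proteins had scores above 0 at both temperatures. So did 9280 of all 10455 genes, and markers of other tissues were not looked up. The count thus shows that shoot genes were covered, but it does not check the tissue label and is no measure of their abundance.

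Superoxide arises where electrons leak to oxygen, mainly in chloroplasts and mitochondria, and superoxide dismutases turn it into hydrogen peroxide. Catalases, which sit in plant peroxisomes, break hydrogen peroxide down to water and oxygen without a reductant and deal with the peroxide that photorespiration produces there. Ascorbate peroxidases reduce hydrogen peroxide with ascorbate in the cytosol, chloroplasts and other compartments, and plant glutathione peroxidases reduce peroxides, lipid peroxides included.

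The catalases had the largest differences among the 10 genes in score units (42 minus 22 °C). By ratio, catalase isozyme A came first and the ascorbate peroxidase APx8, at low scores, lay level with the other catalase. Both were called higher at 42 °C, as was 1 of the 3 ascorbate peroxidases, and none of the 10 was called lower. Over all 9280 genes above 0 at both temperatures, 16.1% were called higher and 21.6% lower, so that 3 of 10 higher and 0 of 10 lower are counts too small to set apart from that background. By direction alone, 7 of the 10 had the higher score at 42 °C and 3 the lower. Their median log2 ratio of 42 over 22 °C was 0.48, with a range of -0.40 to 1.39, beside a median of 0.03 over all genes.

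Ratios in this table depend on level, and most of the 10 genes score above the middle of the table. The median log2 ratio was -0.68 in the lowest of 10 equal bins of genes by mean score, and 0.32 and 0.29 in bins 9 and 10, the highest. Against the median of genes in the same bin, 6 of the 10 genes lay above and 4 below. Among the 2898 genes whose mean score reached 0.2, 11.6% were called higher and 7.52% lower, with a median log2 ratio of 0.27. Of the 10 genes 5 reach that level. Both catalases were called higher there, none of the 5 was called lower, and their median log2 ratio was 0.58.

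**Figure D1:**
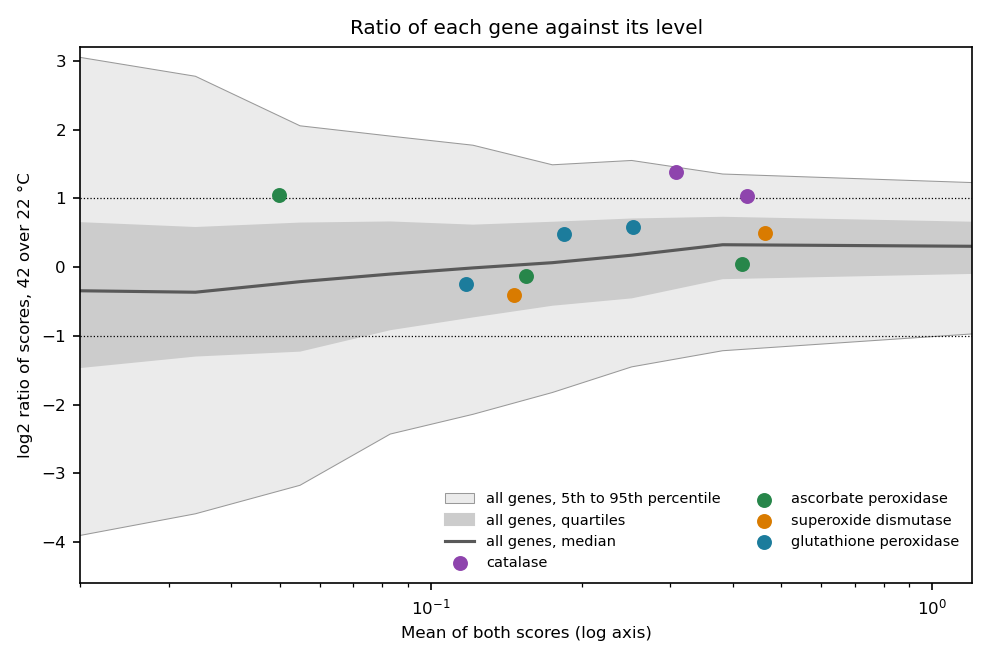
Log2 ratio of the scores (42 over 22 °C, vertical axis) against the mean of both scores (log axis) for the 10 genes, coloured by enzyme type, over bands for all genes in 10 bins of the mean score. The catalase described as isozyme A lies at 1.39, at the edge of the 5th to 95th percentile band of its level, and the ascorbate peroxidase APx8, at 1.05, lies at a much lower mean score, where ratios spread widely.

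The gene OS02T0115700 is described as catalase isozyme A, or CAT-A, and has 3 transcripts. Transcript OS02T0115700-01 scored 0.631 at 42 °C and 0.251 at 22 °C, transcript OS02T0115700-02 scored 0.448 at 42 °C and 0.129 at 22 °C, and transcript OS02T0115700-03 scored 0.260 at 42 °C and 0.132 at 22 °C. Each transcript had its higher score at 42 °C, and the lowest of the scores at 42 °C was just above the highest at 22 °C. Averaged over its transcripts the gene had 0.446 at 42 °C and 0.171 at 22 °C, a 2.61-fold ratio. The ratio stood at the 89.9th percentile of all genes and at the 95.3rd percentile of genes of its bin. Its position among genes by score was the 87.7th percentile at 42 °C and the 67.7th percentile at 22 °C.

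OS03T0131200, described as similar to catalase isozyme 2, had scores that its transcripts shared closely. Transcript OS03T0131200-01 scored 0.536 at 42 °C and 0.267 at 22 °C, and transcript OS03T0131200-02 scored 0.609 at 42 °C and 0.294 at 22 °C. The gene averaged 0.573 at 42 °C and 0.280 at 22 °C, a 2.04-fold ratio. That is just past the 2-fold line, at the 84.5th percentile of all ratios and the 89.1st percentile of its bin. When the ratios of all genes are centred on the median of those 2898 genes, its log2 ratio of 1.03 becomes 0.77 and it is no longer called, whereas OS02T0115700 stays called at 1.12. In score units the differences of both catalases were alike, 0.276 for OS02T0115700 and 0.293 for OS03T0131200, which ranked 422nd and 372nd from the top of 10455 genes.

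**Figure D2:**
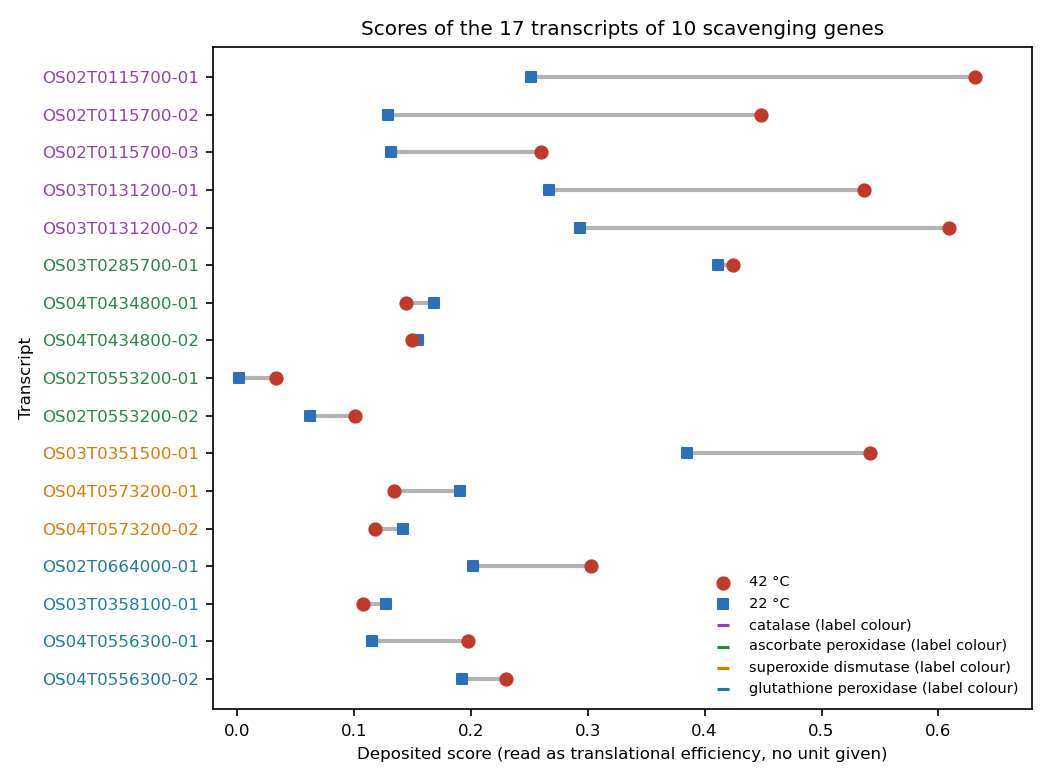
Deposited scores (horizontal axis, no unit given) of the 17 transcripts of the 10 genes at 42 °C (red circles) and at 22 °C (blue squares), with transcript names coloured by enzyme type. Of the 17 transcripts 12 score higher at 42 °C and 5 lower, and 4 of the 5 catalase transcripts at the top have the widest gaps.

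The ascorbate peroxidases differed among themselves. OS03T0285700, described as similar to L-ascorbate peroxidase with no compartment named, had 0.424 at 42 °C and 0.411 at 22 °C, a 1.03-fold ratio. This gene had the highest score of the 10 at 22 °C and was number 4 at 42 °C. Its log2 ratio of 0.04 turns to -0.22 when ratios are centred on the 2898 genes with high scores, so no direction is given for it.

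Both other ascorbate peroxidases are described as thylakoid-bound, the form that removes hydrogen peroxide at the photosynthetic membrane. OS04T0434800-01 scored 0.145 at 42 °C and 0.168 at 22 °C, and OS04T0434800-02 scored 0.150 at 42 °C and 0.155 at 22 °C. The gene OS04T0434800 averaged 0.147 at 42 °C and 0.162 at 22 °C, a log2 ratio of -0.13 that lies inside 2-fold.

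OS02T0553200, described as APx8, had the lowest scores of the 10 genes at both temperatures. Transcript OS02T0553200-01 scored 0.0336 at 42 °C and 0.00195 at 22 °C, and transcript OS02T0553200-02 scored 0.101 at 42 °C and 0.0629 at 22 °C. The gene averaged 0.0673 at 42 °C and 0.0324 at 22 °C, a 2.08-fold ratio. The call rests on a transcript that was near 0 at 22 °C and had a 17.2-fold ratio, while the other had 1.61-fold. Of genes in its bin by mean score, 17.1% were called higher, and with 0.1 added to every score its log2 ratio of 1.05 dropped to 0.34. Genes described as thylakoid-bound ascorbate peroxidase thus lay on both sides of no change.

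Among the superoxide dismutases, OS03T0351500, described as similar to superoxide dismutase, had 0.542 at 42 °C and 0.385 at 22 °C. Its ratio was 1.41-fold, at the 69.0th percentile of all genes, and the 62.3rd of its bin. It was number 2 of the 10 at both temperatures. The other gene, OS04T0573200, had the lowest ratio of the 10. Transcript OS04T0573200-01, described by a copper/zinc superoxide dismutase domain, scored 0.134 at 42 °C and 0.191 at 22 °C. Transcript OS04T0573200-02, whose description names only a genomic clone, scored 0.118 at 42 °C and 0.142 at 22 °C. The gene average of 0.126 at 42 °C, against 0.167 at 22 °C, gives a log2 ratio of -0.40, inside 2-fold. The domain is also carried by the chaperones that load copper into superoxide dismutase, so the description does not show this gene to encode an enzyme.

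The glutathione peroxidases all stayed within 2-fold. OS02T0664000, described as a phospholipid hydroperoxide glutathione peroxidase with a chloroplast precursor, a type that reduces lipid peroxides in membranes, had 0.303 at 42 °C and 0.202 at 22 °C. Its log2 ratio of 0.58 stood at the 72.1st percentile. OS04T0556300 has a transcript, OS04T0556300-01, with 0.197 at 42 °C and 0.116 at 22 °C, and a transcript, OS04T0556300-02, with 0.230 at 42 °C and 0.192 at 22 °C. Averaged, the gene had 0.214 at 42 °C and 0.154 at 22 °C, a 1.39-fold ratio. OS03T0358100 had 0.108 at 42 °C and 0.128 at 22 °C, a log2 ratio of -0.25. Neither of the last pair has a compartment in its description.

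Transcripts of a gene share sequence and libraries, so they are no replicates, but their agreement shows how far a gene average holds for its parts. In each of the 6 genes with several transcripts, all transcripts had ratios of the same direction. Among all 2290 genes with several transcripts above 0 at both temperatures, 27.6% had transcripts of opposite directions. The share was 21.6% among the 1487 of them with a mean score of at least 0.05. Of the 6 genes, only OS02T0553200, at 0.0498, falls short of that level. A count of 6 is too small to set apart from either share. The log2 ratios of the transcripts spanned 0.04 in OS03T0131200, 0.17 in OS04T0434800, 0.24 in OS04T0573200, 0.51 in OS04T0556300, 0.82 in OS02T0115700 and 3.42 in OS02T0553200. The median span over the 2290 genes was 0.65, with quartiles of 0.26 and 1.53. Over the 1487 genes it was 0.43, with quartiles of 0.18 and 0.90.

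The order of the 10 genes differed between the temperatures for the catalases and for genes of the other types. Scores of different genes can be set side by side only if the authors' score is scaled for length, which is not stated. At 42 °C the order from the top began with OS03T0131200, OS03T0351500, OS02T0115700 and OS03T0285700, and at 22 °C with OS03T0285700, OS03T0351500, OS03T0131200 and OS02T0664000. OS02T0115700 was number 3 at 42 °C and number 5 at 22 °C. Lower in the order, OS04T0556300 was number 6 at 42 °C and number 8 at 22 °C. OS04T0573200 was number 8 at 42 °C and number 6 at 22 °C. Genes OS04T0573200 and OS04T0434800 had near-equal scores at 22 °C (0.167 and 0.162), a gap smaller than that between transcripts of OS04T0573200. OS02T0553200 was last at both temperatures.

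By compartment, both peroxisomal genes, the catalases, were called higher. Their descriptions name no compartment, and they were placed in the peroxisome from general knowledge of the enzyme. Of the 3 genes described as chloroplast or thylakoid proteins, 1 was called higher and 2 lay within 2-fold, with log2 ratios of -0.13 for OS04T0434800, 0.58 for OS02T0664000 and 1.05 for OS02T0553200. The 5 other genes with no compartment in the description, which were left unplaced, lay within 2-fold, from -0.40 to 0.49. Type and compartment coincide for the catalases, so a difference by enzyme cannot be told apart from a difference by peroxisome in these 10 genes.

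The table holds 15 further genes described as one of the 4 enzyme types, found by words in the descriptions, of which 1 was at 0 at both temperatures. Of the other 14, 10 had the higher score at 42 °C and 4 the lower, and the median log2 ratio was 0.27. Among these 14, 3 were called higher and 2 lower, beside 16.1% and 21.6% of all genes. The remaining catalase, OS06T0727200, described as isozyme B, had 0.398 at 42 °C and 0.189 at 22 °C, a 2.10-fold ratio. All 3 genes described as catalase were thus called higher, from 2.04-fold to 2.61-fold. Centred on the 2898 genes of high score, OS06T0727200 had a log2 ratio of 0.81 and 1 of the 3 catalases, OS02T0115700, stayed called. With 0.1 added to every score it was again 1 of 3, with OS06T0727200 at 0.78 and OS03T0131200 at 0.82. Over all genes, 11.6% were called higher under that centring and 2.62% with 0.1 added. Catalase genes have similar sequences, and how the authors assigned reads that fit several of them is not stated, so their ratios may not be independent of each other.

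Outside the 10 genes, most genes of the other enzyme types with scores well above 0 lay within 2-fold. OS08T0549100, described as a peroxisome-type ascorbate peroxidase, had 0.435 at 42 °C and 0.272 at 22 °C, a 1.60-fold ratio. OS07T0694700, an L-ascorbate peroxidase, had 0.255 at 42 °C and 0.289 at 22 °C. The manganese superoxide dismutase OS05T0323900, of the mitochondrial kind of enzyme, had 0.401 at 42 °C and 0.314 at 22 °C. Of the 9 genes with a ratio that are described as superoxide dismutase or its domain, 8 lay within 2-fold, and the exception, the iron enzyme OS06T0143000, had scores near 0 (0.000470 at 42 °C and 0.00174 at 22 °C). The glutathione peroxidase OS06T0185900 had 0.807 at 42 °C and 0.786 at 22 °C. OS08T0549100, OS07T0694700, OS05T0323900, OS06T0143000 and OS06T0185900 were picked after their scores were seen.

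The largest ratios in these families came from low scores. OS08T0522400, described as APX6, had 0.0609 at 42 °C and 0.0000977 at 22 °C, and OS11T0284900, a phospholipid hydroperoxide glutathione peroxidase, had 0.0610 at 42 °C and 0.00958 at 22 °C. Both were picked after their scores were seen. OS04T0602100, described by a plant ascorbate peroxidase domain, had 0.00983 at 42 °C and 0.106 at 22 °C. How many reads lie behind such scores is unknown.

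**Figure D3:**
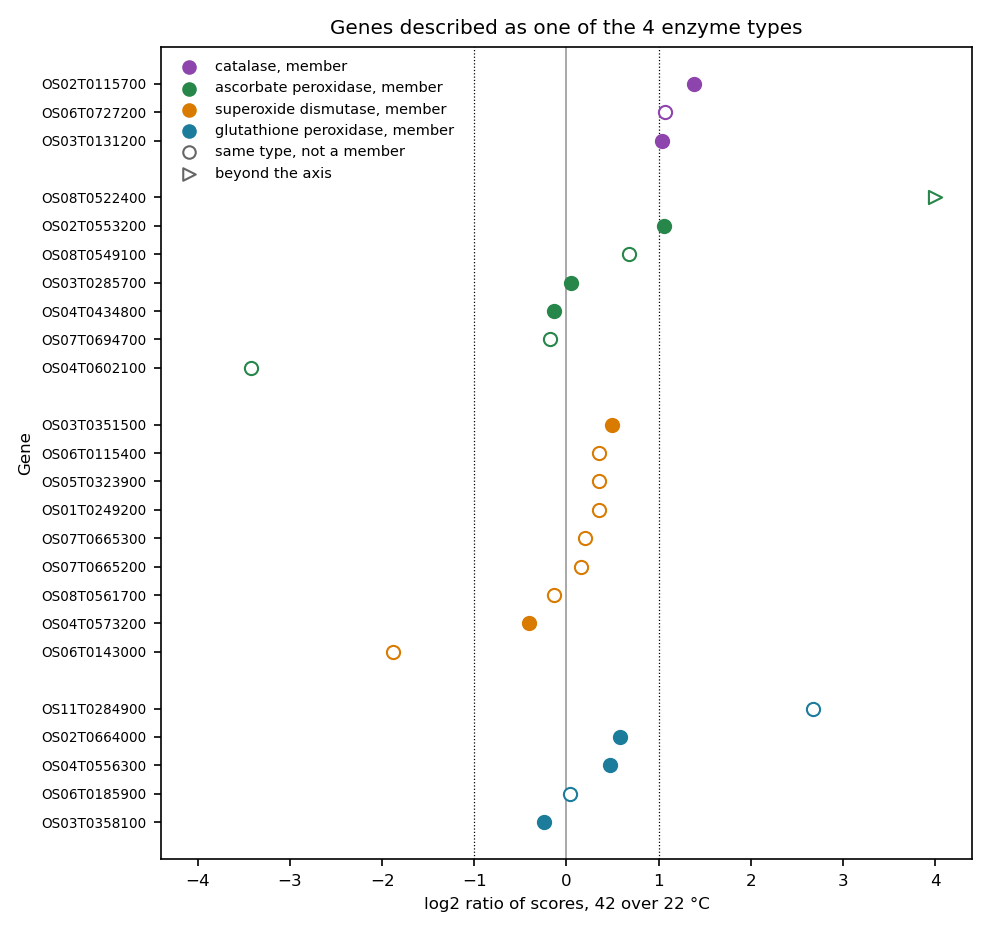
Log2 ratio of the scores (42 over 22 °C, horizontal axis) for the 24 genes described as one of the 4 enzyme types with scores above 0 at both temperatures, with filled points for the 10 genes and open points for the others. The 3 catalases lie together just past 2-fold (dotted lines), 8 of 9 superoxide dismutase genes lie inside 2-fold, and the ascorbate peroxidases spread from -3.43 to beyond the axis.

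Ascorbate peroxidases depend on enzymes that regenerate ascorbate and glutathione, and most of these had small differences. Of 6 genes for monodehydroascorbate reductase, dehydroascorbate reductase and glutathione reductase, 5 had the higher score at 42 °C, all within 2-fold, and 1 was called lower, with a median log2 ratio of 0.25. The lower gene, the monodehydroascorbate reductase OS02T0707100, had 0.0410 at 42 °C and 0.0893 at 22 °C. That call is lost with its lowest-numbered transcript alone, at a log2 ratio of -0.90, since the other transcript is listed at 0 at 42 °C. With lowest-numbered transcripts the glutathione reductase OS02T0813500 was called higher instead, at 1.13, against 0.18 averaged over its 3 transcripts. Genes that make ascorbate and glutathione went both ways. Of 8 such genes 2 were called higher and 2 lower, with a median of -0.22, beside 16.1% and 21.6% of all genes. The glutathione synthetase OS11T0642800, which joins glycine to the precursor of glutathione, had 0.260 at 42 °C and 0.128 at 22 °C. Its log2 ratio of 1.02 is just past 2-fold. With ratios centred on the median of all genes it is no longer called, and the list has 1 called higher and 3 lower. The 2 ferritin genes, which store iron and so limit the chemistry that turns peroxide into hydroxyl radicals, lay within 2-fold with a median of 0.18.

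Class III peroxidases are secreted enzymes that use hydrogen peroxide on wall phenolics among other substrates. The list made for them by words includes genes described only as haem peroxidase, OS06T0306300 and OS05T0134400 among them. Their descriptions do not name the class, so the list may hold peroxidases of other classes. The list held 19 genes, of which 3 were called higher and 3 lower, with a median of -0.14. Over all genes, 16.1% were called higher and 21.6% lower, so these counts are too small to set apart from that background. Those called higher were OS06T0306300 (0.442 at 42 °C and 0.125 at 22 °C), OS12T0112000 (0.253 at 42 °C and 0.0813 at 22 °C) and OS06T0695500 (0.322 at 42 °C and 0.122 at 22 °C). Those called lower were OS11T0210100 (0.0259 at 42 °C and 0.3998 at 22 °C), OS05T0134400 (0.0276 at 42 °C and 0.196 at 22 °C) and OS07T0104100 (0.114 at 42 °C and 0.315 at 22 °C). A wider list of 32 peroxidases of other kinds, made after the scores were seen, had 5 called higher and 4 lower, with a median of -0.09. These counts too cannot be set apart from the shares over all genes.

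Enzymes that produce hydrogen peroxide or superoxide went both ways as a list. Of 27 genes with a ratio, 18 had the higher score at 42 °C and 9 the lower, 3 were called higher and 1 lower, and the median log2 ratio was 0.10. The gene called lower, OS02T0255100 (0.0348 at 42 °C and 0.122 at 22 °C), is by description a protein phosphatase taken in by the word germination. Without it, 18 of 26 genes were higher and 8 lower, 3 were called higher and 0 lower, and the median was 0.10. Over all genes, 4740 of 9280 had the higher score at 42 °C, 16.1% were called higher and 21.6% lower. Glycolate oxidases make the peroxide of photorespiration in the peroxisomes that hold catalase. OS04T0623500, with a transcript described as hydroxy-acid oxidase GLO3, had 0.284 at 42 °C and 0.111 at 22 °C, and OS03T0786100 had 0.112 at 42 °C and 0.0555 at 22 °C. The log2 ratio of OS03T0786100, 1.02, is just past 2-fold, and it is no longer called with ratios centred on the median of all genes. Over the 5 glycolate oxidase genes with a ratio, grouped after the scores were seen, 2 were called higher and none lower, and the log2 ratios ran from -0.54 to 1.36 with a median of 0.95. The 5 acyl-CoA oxidases with a ratio, grouped in the same way, all lay within 2-fold, with a median of 0.14.

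Genes described by the peroxisome or its import proteins were called in either direction. Of 27 with a ratio, 6 were called higher and 3 lower, with a median of 0.32, beside 16.1% and 21.6% of all genes. The list includes peroxisomal oxidases and OS04T0623500. These calls came mostly from low scores: at a mean score of at least 0.05, 1 was called higher and 1 lower, and at 0.2 none was called. Over all genes, 13.9% were called higher and 14.4% lower at 0.05, and 11.6% and 7.52% at 0.2. The 13 import and division proteins alone, picked out after the scores were seen, had 4 called higher and 3 lower and a median of 0.14. Among them the division factor PEX11 gene OS04T0534600 had 0.0260 at 42 °C and 0.0824 at 22 °C. Whether the catalases differ from these proteins could not be tested without values per library.

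**Figure D4:**
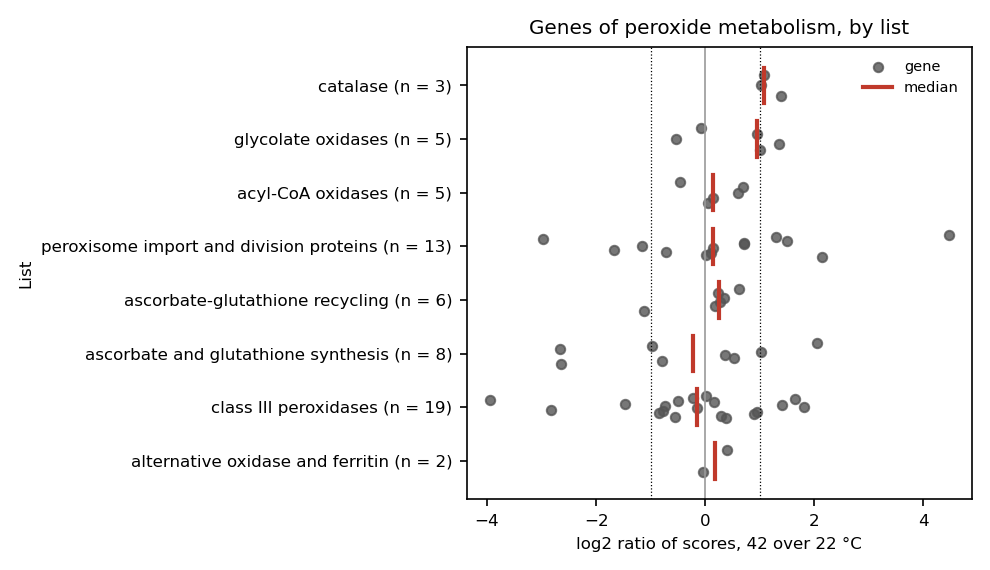
Log2 ratio of the scores (42 over 22 °C, horizontal axis) for each gene (points) of 8 lists around peroxide metabolism, with the median of each list as a red bar and 2-fold as dotted lines. The 3 catalases lie close together past 2-fold, while class III peroxidases and import proteins scatter on both sides of 0.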

How the data were processed

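Per the submitters' processing notes, cutadapt and Bowtie2 were applied to the footprint reads. Not given in the sources used here are versions, genome build, annotation and the way 2 libraries became 1 value. The authors deposited 1 score per transcript and temperature, and in all 14122 transcripts the deposited difference equals the score at 42 °C minus that at 22 °C within 1e-05.

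Scores were averaged over the transcripts of a locus, giving 10455 genes, and the log2 ratio was taken for the 9280 above 0 at both temperatures. A gene was called at 2-fold. The ratio step was run on simulated scores without noise, which checks the arithmetic only. These genes were divided into 10 equal bins by mean score. Lists were made from words in the descriptions, and from each list the genes past 2-fold with a mean of at least 0.05 were named, up to 3 per direction. Members and lists were chosen with earlier results of these data known. No coordinates or sequences are printed, since the 10 identifiers matched 0 entries of the RefSeq gene table and no sequence table was used here. Alternatives were other thresholds, minimum scores, transcript choices, an added constant, a log reading of the score and centring. Python 3.11.15, numpy 2.4.6, pandas 2.3.3 and matplotlib 3.10.9 were used.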

Additional observations from a re-analysis of the deposited data

How the results depend on the processing

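No paired analysis was possible because the table holds no values per replicate, and for the same reason no replicate could be left out. The 10 genes called higher numbered 3, of which 2 catalases and 1 of another type. With each of the 17 transcripts on its own these counts were 5, 4 and 1, beside 16.9% of all transcripts called higher. At 3-fold they were 0, 0 and 0, beside 8.2% of all genes. With 0.1 added to every score they were 1, 1 and 0, beside 2.62% of all genes. With ratios centred on the 2898 genes of high score they were 1, 1 and 0, beside 11.6%. Minimum mean scores of 0.05 and 0.2 left 0 genes of another type called higher, beside 13.9% and 11.6% of all genes. None of the 10 genes was called lower under any alternative run. Of all genes, 2.82% (0.1 added) to 30.8% (1.5-fold) were called lower under the alternatives. The median log2 ratio of the 10 genes was 0.22 under that centring, against 0.48, and moved by at most 0.2 under the other alternatives. Of the 10 genes 9 kept their direction under every alternative in which they had a value; OS03T0285700 turned to -0.22 under the centring. List medians that changed sign were those of ferritins (-0.0089 by transcript, -0.044 at a mean of at least 0.2, -0.085 centred), ascorbate and glutathione synthesis (0.53 at means of at least 0.05 and of 0.2), recycling (-0.012 centred), class III peroxidases (0.23 at a mean of at least 0.2) and producers (-0.17 centred). The median of the peroxisome list was 0.06 both with 0.1 added and centred. With 0.1 added, 1 of the genes of the 4 enzyme types, 1 class III peroxidase and 0 of the peroxisome, producer and synthesis lists were called higher. Since 2.62% of all genes were called higher in that setting, counts of 0 in such short lists do not set them apart. The cause was not tested. The unknown depth limits all low scores.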

Other observations

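For each of the 10 genes the gene with the closest pair of log2 scores was looked up. Over 2 conditions this is a likeness of levels only. The nearest to OS04T0434800 was OS01T0667200, described as similar to glyoxalase II, an enzyme of methylglyoxal removal (0.147 at 42 °C and 0.162 at 22 °C). The nearest to OS03T0131200 was OS06T0672400, with a DUF640 domain (0.567 at 42 °C and 0.279 at 22 °C), and the nearest to OS02T0115700 was OS06T0601100, a conserved hypothetical protein (0.439 at 42 °C and 0.172 at 22 °C). None of the 10 nearest genes is described as 1 of the 4 enzyme types, but only 24 of the 9280 genes with a ratio are. Their absence among 10 genes is therefore no result about the members.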
